A study of Mus musculus with 24 samples.

Results

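The AP-1 genes described here are the 7 Fos and Jun family genes of the mouse, Fos, Fosb, Fosl1, Fosl2, Jun, Junb and Jund. They were chosen by name from the 55341 genes of the deposited count table, and all 7 passed the low-count filter that left 16934 genes for testing. The libraries hold total RNA of 3134 cells, a mouse mammary adenocarcinoma line. Every group carries an IPTG-inducible hairpin against Nipbl, brought in by transduction, and a construct integrated with the piggyBac transposon. The cells grew for 3 days in charcoal-stripped serum and received ethanol, the vehicle, or 100 nM dexamethasone, a synthetic glucocorticoid, for the last 2 h. Each treatment had 6 cell states with 2 libraries each, 24 libraries in all. Of these, 5 states received 1 mM IPTG and carried the NIPBL C1-C2 mutant, the C2 mutant, the C1 mutant, wild-type NIPBL or the empty vector. The sixth carried the empty vector and received no IPTG. Knockdown cells below are those with IPTG and the empty vector. No construct other than the empty vector was sampled without IPTG, so an effect of IPTG itself and an effect of the hairpin cannot be told apart. The labels do not say whether the hairpin line is 1 clone, or how the biological replicates were kept apart. P-values thus measure the spread between the 2 libraries within groups, estimated jointly over all 12 groups.

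AP-1 is a dimer of basic leucine zipper proteins that binds the sequence TGANTCA and related sites. Jun proteins pair with each other or with Fos proteins, while Fos proteins need a Jun partner to bind DNA. Fos, Fosb, Jun and Junb are classical immediate-early genes, induced quickly by growth factors and stress, and Fosl1 and Fosl2 encode the Fra proteins, which lack the strong activation domain of Fos. The glucocorticoid receptor, once bound by hormone, is known to repress many genes driven by AP-1. NIPBL, with its partner MAU2, loads the cohesin complex onto DNA.

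Upstream sequences are given for Fos, Jun and Junb, because dexamethasone went with a higher count, a lower count and no called change in these 3 immediate-early genes. Each window holds the 250 bases before the start of transcription in RefSeq, in GRCm38.p6 (mm10), written 5′ to 3′ on the strand of the gene, and capitals mark the matches described after the sequences. The Fos window is chr12:85473640-85473889 on the plus strand, the Jun window chr4:95052223-95052472 on the minus strand and the Junb window chr8:84978749-84978998 on the minus strand.
Fos: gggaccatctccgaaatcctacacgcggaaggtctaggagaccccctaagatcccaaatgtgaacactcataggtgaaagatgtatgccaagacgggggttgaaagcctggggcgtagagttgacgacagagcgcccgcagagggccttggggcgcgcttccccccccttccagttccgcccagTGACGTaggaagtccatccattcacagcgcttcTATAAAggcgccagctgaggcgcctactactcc
Jun: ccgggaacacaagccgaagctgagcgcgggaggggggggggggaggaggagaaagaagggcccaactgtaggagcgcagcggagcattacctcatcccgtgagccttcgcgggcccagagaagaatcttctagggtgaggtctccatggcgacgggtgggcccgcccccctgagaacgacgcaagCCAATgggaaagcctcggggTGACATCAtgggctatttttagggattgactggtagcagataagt
Junb: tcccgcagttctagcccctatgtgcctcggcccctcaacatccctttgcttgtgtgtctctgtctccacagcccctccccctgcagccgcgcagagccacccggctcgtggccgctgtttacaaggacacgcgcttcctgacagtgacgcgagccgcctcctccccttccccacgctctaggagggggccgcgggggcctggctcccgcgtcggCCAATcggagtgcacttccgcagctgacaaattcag
Both strands were searched for 7 motifs, and positions count back from -1 at the base before the start. The Fos window held TGACGT, the core of a cAMP response element, at -66 to -61 and TATAAA at -33 to -28. The Jun window held TGACATCA, the variant AP-1 site described in the human JUN promoter, at -45 to -38 and CCAAT at -65 to -61. The Junb window held CCAAT at -36 to -32. Over 32851 RefSeq promoters of the same length, TGACGT was found in 6.47%, TATAAA in 12.4%, TGACATCA in 2.93% and CCAAT in 33.8%. The other motifs searched were TGANTCA, found in 6.75% of promoters, AGAACA, part of the glucocorticoid response element, found in 16.1%, and the CArG box of serum response factor, found in 1.47%. None of these 3 was matched in the windows of Fos, Jun and Junb, which says only that those letters are not in these windows. The RefSeq start of Junb lies 30 bases before the counted gene, while those of Fos and Jun meet its end. The starts of Fosl2, Fosb and Jund lie 671 bases inside, 6 bases inside and 1210 bases before the counted gene, and their windows are not shown. Fosl1 is named only.

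The libraries held 45.0 to 72.9 M counts with dexamethasone and 32.5 to 42.7 M in ethanol. Levels are given in CPM, the counts of a gene per 1000000 counts of its library, with library sizes scaled by TMM factors. Nipbl, the target of the hairpin, had 48.0 to 73.3 CPM in the 20 libraries with IPTG and 151 to 186 CPM in the 4 without, and the ranges did not overlap. Tsc22d3, a textbook glucocorticoid target, had 148 to 298 CPM with dexamethasone and 9.95 to 14.1 CPM in ethanol. The labels of the second C1-C2 library in ethanol conflict, with dexamethasone as its treatment and ethanol in its title. Its title set its group, and its Tsc22d3 level was 12.3 CPM. The 2 libraries of wild-type NIPBL in dexamethasone had the highest chi-square per degree of freedom over genes among the 12 pairs, at 22.7, where the other pairs had 5.91 to 16.4. The standard deviation of the log2 differences was largest for the C1 pair in ethanol, at 0.417, with 0.406 for the wild-type NIPBL pair in dexamethasone. Of 7 mammary epithelial markers, Epcam had no count and Krt18, Krt5, Krt19 and Cdh1 stayed at or under 0.163 CPM. Krt8 had 0.343 to 0.767 CPM and Krt14 13.4 to 21.8 CPM. Of 5 mesenchymal markers, Vim had 3328 to 4458 CPM, Col1a2 1387 to 1845 CPM, Fn1 1087 to 3297 CPM and Cdh2 147 to 174 CPM, while Col1a1 had only 0.400 to 2.05 CPM. The label of an adenocarcinoma thus stands beside RNA that lacked most epithelial markers. In bulk RNA, fewer cells of a type and less RNA per cell cannot be told apart.

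Per length, Jund RNA was the most abundant of the 7 genes in every library. In CPM per kb of counted exon length, Jund had 53.6 to 116 CPM per kb and Fosl1, which encodes Fra-1, had 24.3 to 51.2 CPM per kb. Jun ran from 10.5 to 26.4 CPM per kb, Junb from 11.3 to 17.03 CPM per kb and Fosl2, which encodes Fra-2, from 6.61 to 18.9 CPM per kb. Fosb stayed between 0.248 and 0.615 CPM per kb and Fos between 0.0109 and 0.663 CPM per kb. By counted exon length the classical Fos and Fosb genes gave under 1 CPM per kb in all 24 libraries, and the Fos family RNA was almost all Fosl1 and Fosl2. By the length of the longest annotated transcript, Fosb reached up to 1.01 CPM per kb. As a share of the summed level of the 7 genes per kb of counted exon length, Jund made up 56.2% ± 4.33 with dexamethasone and 36.1% ± 0.0955 in ethanol in cells without IPTG (SD, n = 2 each). By the longest transcript these shares were 52.0% ± 4.40 and 32.6% ± 0.0718 (SD, n = 2 each). In knockdown cells the share of Jund was 60.3% ± 1.198 with dexamethasone and 39.0% ± 0.681 in ethanol (SD, n = 2 each). The share of Fosl1 in knockdown cells was 16.9% ± 0.517 with dexamethasone and 26.9% ± 1.82 in ethanol (SD, n = 2 each). Jund was the leading RNA in both treatments, and the Fosl1 and Jun shares were lower with dexamethasone in all 6 states.

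**Figure D1:**
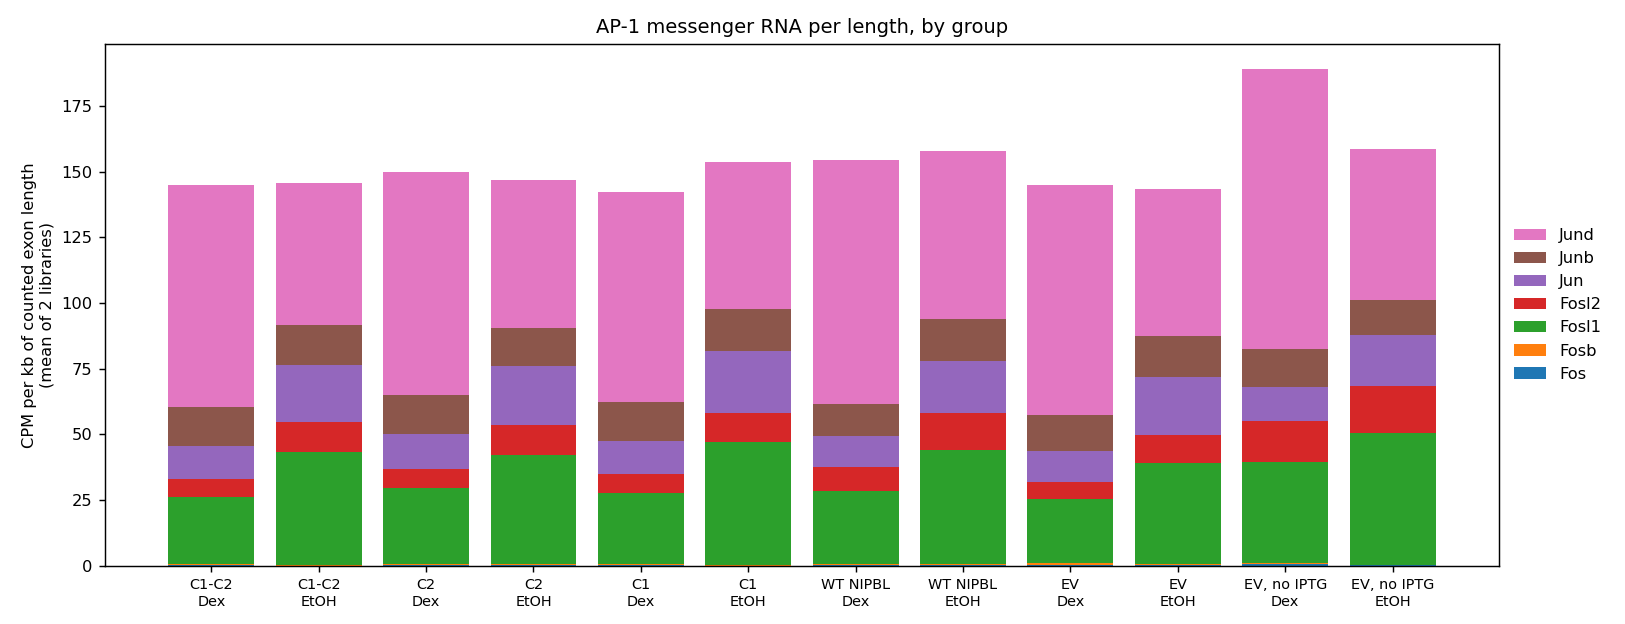
Stacked bars of the level of each AP-1 gene, in CPM per kb of counted exon length, in the 12 groups, each the mean of 2 libraries with no error drawn. Jund is the largest segment in each bar, from 54.1 to 107 CPM per kb, and Fos and Fosb are barely visible at the base.

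The first question was how each AP-1 gene stood after 2 h of dexamethasone, in each of the 6 cell states. Fosl1, Fosl2 and Jun were lower and Jund higher with dexamethasone in all 6 states, Fos and Fosb were higher with calls in some states, and Junb was called in none. In cells without IPTG, 6 of the 7 genes were called with edgeR's quasi-likelihood test at an adjusted p under 0.05, 3 higher and 3 lower, where 38% of all tested genes were called, 19.8% higher and 18.2% lower. In cells with IPTG, 6 of 7 were called with the C1-C2 mutant, 3 higher and 3 lower, where 32.3% of all genes were called, 16.4% higher and 15.8% lower. With the C2 mutant 4 were called, 1 higher and 3 lower, beside 32.5% of all genes, 16.8% higher and 15.7% lower. With the C1 mutant 6 were called, 3 in each direction, beside 32.2%, 17% higher and 15.2% lower. Wild-type NIPBL gave 4 calls, 1 higher and 3 lower, beside 28.5%, 14.8% higher and 13.7% lower. Knockdown cells gave 5, 2 higher and 3 lower, beside 32.5%, 17.1% higher and 15.4% lower. The 6 responses share no libraries. The median of the 7 log2 changes was 0.10 without IPTG and -0.18 in knockdown cells, beside 0.01 over all tested genes in both. The labels number the ethanol libraries and the dexamethasone libraries in separate runs, and do not say what the numbers mark, so whatever they mark cannot be told apart from the treatment.

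Fos, the founding immediate-early gene of the family, was scarce and stood higher with dexamethasone. With dexamethasone it had 0.293 and 0.349 CPM in C1-C2 cells, 0.411 and 0.470 CPM in C2 cells, 0.391 and 0.463 CPM in C1 cells, 0.692 and 0.537 CPM in wild-type NIPBL cells, 0.626 and 0.645 CPM in knockdown cells and 1.25 and 1.56 CPM without IPTG. In ethanol it had 0.0255 and 0.207 CPM in C1-C2 cells, 0.245 and 0.256 CPM in C2 cells, 0.158 and 0.181 CPM in C1 cells, 0.298 and 0.385 CPM in wild-type NIPBL cells, 0.203 and 0.300 CPM in knockdown cells and 0.374 and 0.379 CPM without IPTG. Both dexamethasone libraries exceeded both ethanol libraries in each state, and the cells without IPTG gave the highest level. With 2 libraries a group such separation can arise without a true difference. Its share over all genes was not counted, here or for the genes below. The Fos levels rest on few counts, for example 56 and 86 counts with dexamethasone and 16 and 13 counts in ethanol without IPTG. In that state the log2 change was 1.90 ± 0.34 (SE, edgeR adjusted p = 7.89e-05). In knockdown cells it was 1.35 ± 0.40 (SE, edgeR adjusted p = 0.0111), and without replicate 1 of knockdown cells in ethanol it was 1.07 with an adjusted p of 0.141. Fos was also called in C1-C2 and C1 cells. In C1-C2 cells the log2 change of 1.41 (edgeR adjusted p = 0.031) became 3.52 without replicate 2 in ethanol, the library with conflicting labels. It became 0.63 (adjusted p = 0.421) without replicate 1 in ethanol, which held 1 Fos count. The call was also lost without replicate 1 (adjusted p = 0.0609) or replicate 2 (adjusted p = 0.146) in dexamethasone, with no filter on low counts (0.0633), with only the libraries compared (0.0632), with the GC trend removed (0.066) and with DESeq2 (0.0796). In C1 cells the log2 change of 1.31 had an edgeR adjusted p of 0.0243, which became 0.135 without replicate 1 and 0.0827 without replicate 2 in ethanol, 0.102 without replicate 2 in dexamethasone, 0.0575 with the GC trend removed and 0.0671 with DESeq2. In wild-type NIPBL cells (0.85 ± 0.37 SE, edgeR adjusted p = 0.0895) and C2 cells (0.80 ± 0.41 SE, edgeR adjusted p = 0.143) the change was not called.

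Fosb, a close relative of Fos, had 53 to 242 counts a library. With dexamethasone it had 3.84 and 3.17 CPM in C1-C2 cells, 3.29 and 3.10 CPM in C2 cells, 3.38 and 3.37 CPM in C1 cells, 3.34 and 3.55 CPM in wild-type NIPBL cells, 3.41 and 3.83 CPM in knockdown cells and 3.00 and 3.01 CPM without IPTG. In ethanol the levels were 2.17 and 2.21 CPM in C1-C2 cells, 2.77 and 2.62 CPM in C2 cells, 2.53 and 2.17 CPM in C1 cells, 2.83 and 2.59 CPM in wild-type NIPBL cells, 2.61 and 3.12 CPM in knockdown cells and 1.96 and 1.55 CPM without IPTG. The treatments did not overlap within any state, and the lowest ethanol level was that without IPTG. Fosb rose by a log2 of 0.77 ± 0.17 without IPTG (SE, edgeR adjusted p = 0.00067) and by 0.68 ± 0.16 in C1-C2 cells (SE, edgeR adjusted p = 0.00178). In C1-C2 cells Fosb was not called with the GC trend removed and a replicate block within treatment (0.47, edgeR adjusted p = 0.0501). In C1 cells it rose by 0.52 ± 0.16 (SE, edgeR adjusted p = 0.0127), a call that was lost without replicate 2 in ethanol (0.41, adjusted p = 0.129) or replicate 1 in dexamethasone (0.52, adjusted p = 0.0516), or with the GC trend removed (0.36, adjusted p = 0.108). In knockdown, wild-type NIPBL and C2 cells the log2 changes of 0.34, 0.34 and 0.25 were not called.

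Fosl1 stood lower with dexamethasone in all 6 states. With dexamethasone it had 51.6 CPM in both C1-C2 libraries, 50.8 and 66.5 CPM in the C2 libraries, 50.0 and 59.9 CPM in C1 cells, 53.1 and 59.8 CPM in wild-type NIPBL cells, 49.4 and 49.9 CPM in knockdown cells and 76.9 and 79.1 CPM without IPTG. In ethanol Fosl1 had 82.5 and 91.2 CPM in C1-C2 cells, 75.0 and 93.5 CPM in C2 cells, 89.8 and 99.8 CPM in C1 cells, 91.2 and 85.6 CPM in wild-type NIPBL cells, 80.9 and 75.7 CPM in knockdown cells and 99.0 and 104 CPM without IPTG. The treatments did not overlap within a state, and with dexamethasone the cells without IPTG stood above all cells with IPTG. Fosl1 fell by a log2 of 0.66 in knockdown cells (-0.66 ± 0.12 SE, edgeR adjusted p = 0.000691), and the changes in the 5 states with IPTG ran from -0.79 to -0.52. Without IPTG the change was -0.38 ± 0.12 (SE, edgeR adjusted p = 0.0209), and leaving out any of the 4 libraries of that comparison took the adjusted p to 0.0555 to 0.11. In C2 cells the call was also lost without replicate 2 in ethanol (-0.36, adjusted p = 0.0544) and with only the libraries compared (-0.53, adjusted p = 0.0928). Fosl1 overlaps Ccdc85b on the opposite strand, and the strand setting of the counting is not given in the sources used here, so reads of the 2 genes cannot be told apart where they overlap. Ccdc85b had 22.7 to 32.8 CPM with dexamethasone and 26.6 to 35.3 CPM in ethanol.

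Fosl2 was lower with dexamethasone in every state as well. With dexamethasone it had 65.1 and 68.8 CPM in C1-C2 cells, 69.4 and 70.5 CPM in C2 cells, 66.3 and 68.9 CPM in C1 cells, 85.5 and 87.6 CPM in wild-type NIPBL cells, 64.0 and 65.3 CPM in knockdown cells and 147 and 157 CPM without IPTG. In ethanol Fosl2 had 110 and 113 CPM in C1-C2 cells, 119 and 108 CPM in C2 cells, 104 and 109 CPM in C1 cells, 129 and 145 CPM in wild-type NIPBL cells, 104 and 106 CPM in knockdown cells and 166 and 183 CPM without IPTG. No state had overlapping treatments. The log2 change was -0.70 ± 0.06 in knockdown cells (SE, edgeR adjusted p = 2.17e-09) and between -0.73 and -0.66 in the 5 states with IPTG. Without IPTG it was -0.20 ± 0.06 (SE, edgeR adjusted p = 0.0097), a call that was lost without replicate 2 in ethanol (-0.13, adjusted p = 0.179) or replicate 1 in dexamethasone (-0.15, adjusted p = 0.121). The difference of these responses, knockdown minus no IPTG, was -0.50 ± 0.09 (SE, edgeR adjusted p = 0.00732). Of the 7 genes only Fosl2 passed this test of the difference, which called 0.171% of all tested genes, 0.154% lower. The adjusted p became 0.0832 without replicate 1 in ethanol and 0.0509 without replicate 2 in dexamethasone of the cells without IPTG, and 0.0726 without replicate 2 in ethanol and 0.0579 without replicate 1 in dexamethasone of the knockdown cells, while the difference stayed between -0.49 and -0.44.

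**Figure D2:**
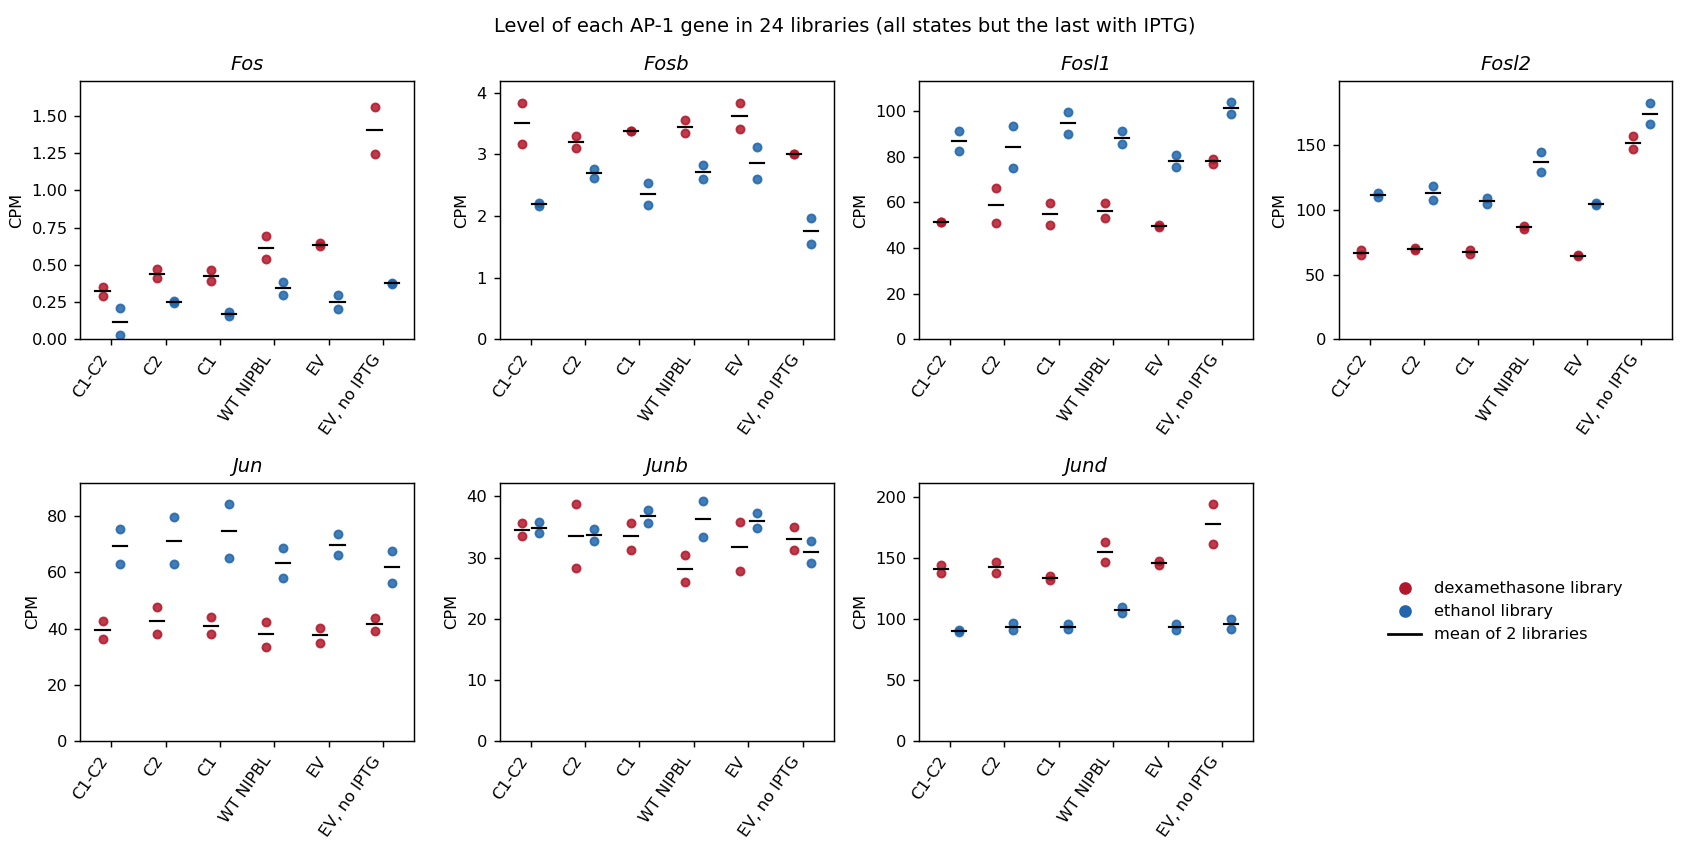
Level of each AP-1 gene in CPM on axes that start at 0, with a point for each of the 24 libraries and a line at the mean of 2. Red points are dexamethasone and blue points ethanol, and Fosl2 in cells without IPTG, at 147 to 183 CPM, lies above every library with IPTG.

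Among the Jun genes, Jun fell, Jund rose and Junb was not called. Jun, the main partner of the Fos proteins and a target of the JNK kinases, had 36.2 and 42.8 CPM with dexamethasone in C1-C2 cells, 38.1 and 47.6 CPM in C2 cells, 38.1 and 44.0 CPM in C1 cells, 33.5 and 42.4 CPM in wild-type NIPBL cells, 35.0 and 40.2 CPM in knockdown cells and 39.2 and 43.9 CPM without IPTG. In ethanol Jun had 63.0 and 75.5 CPM in C1-C2 cells, 62.8 and 79.7 CPM in C2 cells, 65.3 and 84.2 CPM in C1 cells, 58.0 and 68.7 CPM in wild-type NIPBL cells, 66.1 and 73.8 CPM in knockdown cells and 56.2 and 67.6 CPM without IPTG. All 12 dexamethasone libraries, at 33.5 to 47.6 CPM, lay below all 12 ethanol libraries, at 56.2 to 84.2 CPM. Jun fell by a log2 of 0.90 in knockdown cells (-0.90 ± 0.19 SE, edgeR adjusted p = 0.00247), the largest of its 6 changes, and by 0.57 without IPTG (-0.57 ± 0.19 SE, edgeR adjusted p = 0.0288). The call without IPTG was lost without replicate 2 in ethanol (-0.43, adjusted p = 0.187), without replicate 1 (-0.49, adjusted p = 0.153) or replicate 2 (-0.66, adjusted p = 0.0618) in dexamethasone, and with no filter on low counts (adjusted p = 0.0572). Calls were also lost in wild-type NIPBL cells without replicate 2 in ethanol (-0.64, adjusted p = 0.0787) or replicate 1 in dexamethasone (-0.58, adjusted p = 0.103). In C2 cells the call was lost without replicate 2 in ethanol (-0.56, adjusted p = 0.0877) or replicate 1 in dexamethasone (-0.58, adjusted p = 0.0864). In C1-C2 cells it was lost without replicate 2 in ethanol, which has conflicting labels (-0.68, adjusted p = 0.0508), or replicate 1 in dexamethasone (-0.70, adjusted p = 0.0543). The antisense gene Junos, which overlaps Jun, had 12.6 to 15.9 CPM with dexamethasone and 13.4 to 15.7 CPM in ethanol.

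Jund, a broadly expressed member that restrains growth in mouse fibroblasts, was called higher in all 6 states. With dexamethasone it had 144 and 138 CPM in C1-C2 cells, 147 and 137 CPM in C2 cells, 135 and 132 CPM in C1 cells, 147 and 163 CPM in wild-type NIPBL cells, 144 and 148 CPM in knockdown cells and 194 and 161 CPM without IPTG. In ethanol Jund had 89.4 and 90.9 CPM in C1-C2 cells, 96.3 and 90.6 CPM in C2 cells, 91.4 and 95.4 CPM in C1 cells, 105 and 109 CPM in wild-type NIPBL cells, 90.9 and 96.0 CPM in knockdown cells and 91.4 and 99.6 CPM without IPTG. All 12 dexamethasone libraries, from 132 CPM, lay above all 12 ethanol libraries, up to 109 CPM. Jund rose by a log2 of 0.90 ± 0.07 without IPTG (SE, edgeR adjusted p = 1.72e-10) and by 0.64 ± 0.07 in knockdown cells (SE, edgeR adjusted p = 8.17e-08). The changes in the 5 states with IPTG ran from 0.52 to 0.64. The difference of the responses, knockdown minus no IPTG, was -0.26 ± 0.10 (SE, edgeR adjusted p = 0.754). The antisense gene Gm11175, which overlaps Jund, had 0.697 to 1.43 CPM with dexamethasone and 0.62 to 1.49 CPM in ethanol.

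Junb, which can oppose Jun at some targets, had 25.9 to 38.8 CPM with dexamethasone and 29.1 to 39.2 CPM in ethanol. Its ranges overlapped over all 24 libraries, and within 4 of the 6 states. The largest change was in wild-type NIPBL cells, with 25.9 and 30.4 CPM with dexamethasone and 33.4 and 39.2 CPM in ethanol. It came to a log2 of -0.37 ± 0.15 (SE, edgeR adjusted p = 0.08), and DESeq2 called it (adjusted p = 0.0132). Prdx2, which overlaps Junb on the opposite strand, had 89.2 to 98.5 CPM with dexamethasone and 74.4 to 86.7 CPM in ethanol. Its log2 change without IPTG was 0.32 (edgeR adjusted p = 7.73e-05), and its part in the Junb counts was not tested.

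Library composition moved with treatment and bears on the GC-rich Jun genes. Jund RNA has 67.1% GC, above 99.7% of tested genes, and Junb RNA has 62.6%, above 98.6%. Each gene's log2 level was set against its own mean over the libraries, and the mean over genes in the upper quartile of GC content, of 12369 genes, minus that over the lower quartile was 0.06 to 0.29 in the dexamethasone libraries and -0.28 to -0.14 in the ethanol libraries. With the trend on GC content and length removed, the Jund response was smaller but called in all 6 states, from 0.39 to 0.58. The decreases of Fosl1, Fosl2 and Jun were larger, and each was called in 6 of 6 states. Fosb was called in 2 states, Fos in 2 and Junb in 1, wild-type NIPBL cells (-0.48, edgeR adjusted p = 0.0208).

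**Figure D3:**
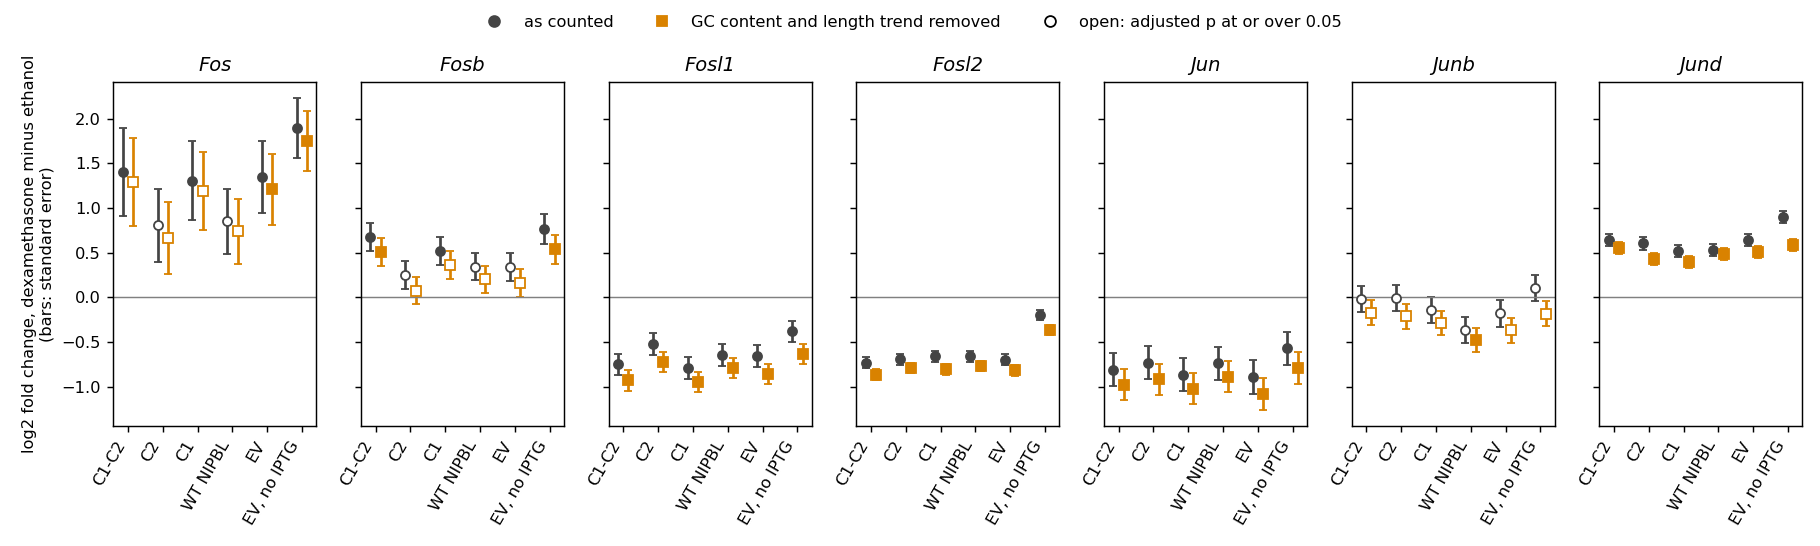
Log2 change of each AP-1 gene between dexamethasone and ethanol in the 6 cell states, with bars of 1 standard error. Grey points are from the counts and orange squares with the trend on GC content and length removed. Open marks have an edgeR adjusted p at or over 0.05. Fosl1, Fosl2 and Jun lie below 0 and Jund above 0 in every state under both.

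The knockdown comparison asked how AP-1 RNA stood in cells with IPTG and the empty vector against the same cells without IPTG. Fosl2 stood out among the 7, lower in knockdown cells in both treatments. In dexamethasone Fos, Fosl1 and Jund were called lower as well, and in ethanol Fosb was called higher. Fosb changed by 0.27 ± 0.15 in dexamethasone (SE, edgeR adjusted p = 0.246). Jund changed by -0.03 ± 0.07 in ethanol (SE, edgeR adjusted p = 0.838). Of the 7 genes only Fosl2 passed the direct test of the difference between the treatments. The knockdown test called 4 of 7 genes in dexamethasone, all lower, where 16.9% of all tested genes were called and 8.49% were lower. In ethanol it called 2 of 7, 1 in each direction, where 13.4% of all tested genes were called, 7.16% higher and 6.24% lower. The median of the 7 log2 changes was -0.29 in dexamethasone and -0.03 in ethanol, beside 0.00 and -0.01 over all tested genes.

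Fosl2 had 64.0 and 65.3 CPM in knockdown cells and 147 and 157 CPM without IPTG, both in dexamethasone. In ethanol it had 104 and 106 CPM in knockdown cells and 166 and 183 CPM without IPTG. The groups did not overlap in either treatment. The log2 change was -1.23 ± 0.06 in dexamethasone (SE, edgeR adjusted p = 1.85e-12), a 2.35-fold lower level, and -0.73 ± 0.06 in ethanol (SE, edgeR adjusted p = 1.01e-08), a 1.66-fold lower level. Both calls held in every alternative run. Fosl1 had 49.4 and 49.9 CPM in knockdown cells and 76.9 and 79.1 CPM without IPTG in dexamethasone, a log2 change of -0.65 ± 0.12 (SE, edgeR adjusted p = 0.00167). In ethanol its change of -0.37 ± 0.12 (SE) missed the threshold (edgeR adjusted p = 0.0554), while DESeq2 called it (adjusted p = 0.00483), as did edgeR with the GC trend removed (adjusted p = 0.0166). The overlapping gene Ccdc85b had a log2 change of -0.23 in the dexamethasone comparison (edgeR adjusted p = 0.0363).

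Fos had 0.626 and 0.645 CPM in knockdown cells and 1.25 and 1.56 CPM without IPTG in dexamethasone, which were 31 and 32 counts against 56 and 86 counts. The groups did not overlap, and the log2 change was -1.14 ± 0.30 (SE, edgeR adjusted p = 0.00981). The adjusted p became 0.0951 without replicate 2 of the cells without IPTG, and 0.0585 and 0.0689 without replicate 1 or replicate 2 of the knockdown cells. In ethanol the change was -0.60 ± 0.45 (SE, edgeR adjusted p = 0.437). Fosb had 2.61 and 3.12 CPM in knockdown cells and 1.96 and 1.55 CPM without IPTG in ethanol, a log2 change of 0.69 ± 0.17 (SE, edgeR adjusted p = 0.00752). That call was lost without replicate 2 of the knockdown cells (0.56, adjusted p = 0.117) or of the cells without IPTG (0.54, adjusted p = 0.101). Jund had 144 and 148 CPM in knockdown cells and 194 and 161 CPM without IPTG in dexamethasone, a log2 change of -0.29 ± 0.07 (SE, edgeR adjusted p = 0.00414). It rested on replicate 1 without IPTG, and without that library it was -0.15 (adjusted p = 0.187). Some cell type markers also differed. Of 2 tested epithelial markers Krt14 was lower, at -0.42 in dexamethasone and -0.37 in ethanol (edgeR adjusted p = 0.00207 and 0.0117), and Krt8 was not called, at 0.37 and 0.11. Of 5 tested mesenchymal markers Col1a1 was higher in both treatments, at 1.43 in dexamethasone and 1.21 in ethanol (edgeR adjusted p = 0.00325 and 0.012), and Col1a2 in ethanol, at 0.31 (edgeR adjusted p = 0.00669). Col1a1 was scarce, with 0.400 to 2.05 CPM over all libraries. The 1 leukocyte and 1 endothelial marker tested were not called, and the part of the markers in the AP-1 results was not tested. Jun and Junb were not called in either treatment in the fit without a replicate block. The log2 changes of Jun were -0.15 ± 0.19 in dexamethasone and 0.18 ± 0.19 in ethanol (SE). Those of Junb were -0.06 ± 0.15 and 0.22 ± 0.15 (SE), and its groups did not overlap in ethanol. Within each replicate number, Jun and Junb were both higher in knockdown cells in ethanol. With either replicate block the ethanol test called 5 AP-1 genes, against 2 without. The added genes are not named here, so the lack of a Jun or Junb call in ethanol is stated only without the block.

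**Figure D4:**
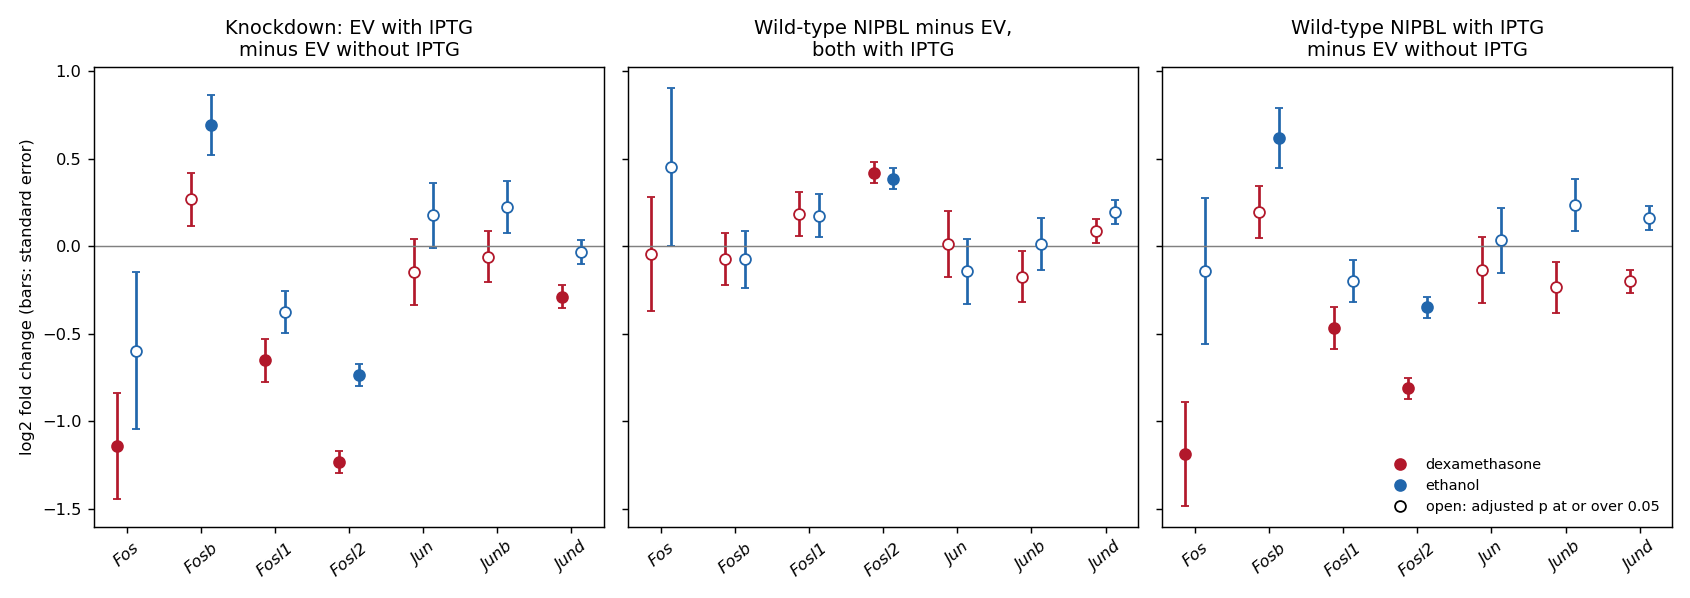
Log2 change of each AP-1 gene in 3 comparisons, with bars of 1 standard error, in dexamethasone (red) and ethanol (blue). Open points have an edgeR adjusted p at or over 0.05. Fosl2 lies at -1.23 and -0.73 in the knockdown, at 0.42 and 0.39 with wild-type NIPBL against empty vector, and at -0.81 and -0.35 between wild-type NIPBL with IPTG and cells without IPTG.

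Wild-type NIPBL against the empty vector, both with IPTG, compared the construct with its vector in knockdown cells. The counts of the mouse gene Nipbl stood at 66.2 and 55.1 CPM with wild-type NIPBL and 54.4 and 56.5 CPM with the empty vector in dexamethasone, and at 70.4 and 62.7 CPM against 65.1 and 62.6 CPM in ethanol. They overlapped in both treatments and lay far below the cells without IPTG, and the labels do not say whether RNA of the construct would be counted in Nipbl. Fosl2 was the only AP-1 gene called, and it was higher with wild-type NIPBL in both treatments. It had 85.5 and 87.6 CPM with wild-type NIPBL and 64.0 and 65.3 CPM with the empty vector in dexamethasone, and 129 and 145 CPM against 104 and 106 CPM in ethanol. The groups did not overlap, with log2 changes of 0.42 ± 0.06 in dexamethasone (SE, edgeR adjusted p = 0.00015) and 0.39 ± 0.06 in ethanol (SE, edgeR adjusted p = 0.000701). Of all tested genes 4.2% were called in dexamethasone, 2.36% higher, and 1.16% in ethanol, 0.632% higher, and the Fosl2 calls held in every alternative run. These comparisons share the empty vector libraries with the knockdown comparison. Among the markers, Krt14 was higher with wild-type NIPBL, at 0.50 in dexamethasone and 0.52 in ethanol (edgeR adjusted p = 0.00195 and 0.00376), Vim was lower in dexamethasone, at -0.25 (edgeR adjusted p = 0.0134), the other tested markers were not called, and their part in the Fosl2 result was not tested. Against cells without IPTG, in a pair of comparisons added after results were seen, Fosl2 was still lower with wild-type NIPBL. The log2 change was -0.81 ± 0.06 in dexamethasone (SE, edgeR adjusted p = 5.08e-09) and -0.35 ± 0.06 in ethanol (SE, edgeR adjusted p = 0.000711). In dexamethasone 3 of 7 genes were called, all lower (10.7% of all genes called, 6.41% lower), the others being Fos at -1.19 ± 0.30 (SE, edgeR adjusted p = 0.0111) and Fosl1 at -0.47 ± 0.12 (SE, edgeR adjusted p = 0.0231). In that comparison 1 of 5 mesenchymal markers, Vim, was lower and the 1 tested endothelial marker, Cdh5, was higher, and their part was not tested. The Cdh5 call rests on very few counts, with 0 to 0.294 CPM over the 24 libraries. In ethanol 2 of 7 were called (5.06% of all genes, 2.23% higher and 2.83% lower), the other being Fosb, higher by a log2 of 0.62 ± 0.17 (SE, edgeR adjusted p = 0.0349). The calls of Fosb, Fos and Fosl1 there were lost when single libraries were left out, with adjusted p-values of 0.0594 to 0.265 for Fosb, 0.0748 to 0.0851 for Fos and 0.0891 to 0.165 for Fosl1. The libraries were all 4 of the comparison for Fosb. For Fos they were replicate 2 of each group, and for Fosl1 both without IPTG and replicate 1 with wild-type NIPBL. With only the libraries compared the calls of Fosb (0.146) and Fos (0.0628) were lost as well, and that of Fosb also with DESeq2 (0.0576) and with no filter (0.0596). For Fos in dexamethasone DESeq2 gave no adjusted p.

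Against the empty vector, the C1-C2, C2 and C1 mutants gave 0 of 7 AP-1 genes with edgeR and 0 with DESeq2 in all 6 comparisons. At an unadjusted edgeR p under 0.05 there was 1 gene each for C1-C2 in dexamethasone, C1-C2 in ethanol and C1 in ethanol, and 0 in the other 3. Of 16934 tested genes, 1650, 1776 and 1722 passed that unadjusted threshold in dexamethasone for C1-C2, C2 and C1. In ethanol 809, 1663 and 1132 did. At an adjusted p under 0.05 these tests called 0.1%, 0.644% and 0.537% of all genes in dexamethasone and 0.0591%, 0.224% and 0.272% in ethanol for C1-C2, C2 and C1. Fosl2 had 65.1 to 70.5 CPM in the 6 mutant libraries and 64.0 and 65.3 CPM with the empty vector in dexamethasone. In ethanol it had 104 to 119 CPM with the mutants and 104 and 106 CPM with the empty vector. The log2 changes of Fosl2 in dexamethasone were 0.05 ± 0.06 for C1-C2, 0.11 ± 0.06 for C2 and 0.06 ± 0.06 for C1 (SE), where wild-type NIPBL gave 0.42 ± 0.06.

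Set against wild-type NIPBL and averaged over both treatments, each mutant had less Fosl2. The log2 change was -0.33 ± 0.04 for C1-C2 (SE, edgeR adjusted p = 2.24e-05), -0.29 ± 0.04 for C2 (SE, edgeR adjusted p = 7.61e-05) and -0.36 ± 0.04 for C1 (SE, edgeR adjusted p = 4.64e-06). The 6 mutant libraries lay below both wild-type NIPBL libraries in each treatment, and these calls held in every alternative run. The 3 comparisons share the wild-type NIPBL libraries. Of 5 tested mesenchymal markers 2 were higher for C1 (Vim and Cdh2), 1 for C2 (Vim) and 0 for C1-C2. Of 2 tested epithelial markers 1, Krt14, was lower for C2 and for C1-C2, and the leukocyte marker Cd68 was higher for C1. The part of these markers in the Fosl2 result was not tested. Jund was lower too, by a log2 of 0.19 with C1-C2 (-0.19 ± 0.05 SE, edgeR adjusted p = 0.0216), 0.16 with C2 (-0.16 ± 0.05 SE, edgeR adjusted p = 0.0339) and 0.20 with C1 (-0.20 ± 0.05 SE, edgeR adjusted p = 0.00825). In all, 3 of 7 genes were called for C1-C2 (4.86% of all genes, 2.19% lower), 2 for C2 (12.9%, 5.98% lower) and 2 for C1 (9.66%, 4.41% lower), all lower. The third for C1-C2 was Fos, at -1.205 ± 0.309 (SE, edgeR adjusted p = 0.0235), and DESeq2 gave no adjusted p for Fos in this comparison. Without replicate 1 of C1-C2 in ethanol Fos was at -0.82 (adjusted p = 0.128), and without replicate 2, the library with conflicting labels, at -2.26. The Fos call was also lost without replicate 1 (adjusted p = 0.0733) or replicate 2 (0.0554) of C1-C2 in dexamethasone, or without replicate 1 in dexamethasone (0.0658) or replicate 2 in ethanol (0.116) of wild-type NIPBL, and with only the libraries compared (0.0988). The Jund call for C1 was lost when the second ethanol library of wild-type NIPBL was left out (adjusted p = 0.0701). For C1-C2 it was lost without either wild-type NIPBL library in ethanol, replicate 2 of wild-type NIPBL in dexamethasone, either C1-C2 library in ethanol or replicate 2 of C1-C2 in dexamethasone, with adjusted p-values of 0.0503 to 0.123. For C2 it was lost without the same 3 wild-type NIPBL libraries, replicate 2 of C2 in either treatment, either C1 library in ethanol or replicate 2 of the empty vector in ethanol, with adjusted p-values of 0.0511 to 0.149, and with only the libraries compared (0.0675).

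The dexamethasone responses of the 7 genes were also compared between constructs. With edgeR and with DESeq2, 0 of 7 differed between wild-type NIPBL and the empty vector, or between C1-C2, C2 or C1 and wild-type NIPBL. With edgeR these 4 tests called 0.0118%, 0%, 0.00591% and 0.0118% of all genes. At an unadjusted edgeR p under 0.05 there were 0 of 7 in each, beside 521, 541, 744 and 734 of 16934 tested genes. The difference of the Fosl2 responses was 0.04 ± 0.09 for wild-type NIPBL minus empty vector and -0.07 ± 0.09 for C1-C2 minus wild-type NIPBL (SE). With 2 libraries a group, differences of this size are within the error.

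In the order of mean CPM over the 12 groups, the cells without IPTG held the first places for Fosl2, with 152 ± 7.17 CPM in dexamethasone and 174 ± 11.5 CPM in ethanol (SD, n = 2 each), and Fosl2 came last in knockdown cells in dexamethasone, at 64.7 ± 0.873 CPM (SD, n = 2). The Fosl2 libraries of neighbouring groups did not overlap down to the C2 mutant in ethanol, the fourth group. The 6 ethanol groups of Jun overlapped from neighbour to neighbour, as did its 6 dexamethasone groups, with a gap between the treatments, and all 12 Junb groups overlapped from neighbour to neighbour. Jund led without IPTG in dexamethasone and came last in C1-C2 cells in ethanol, at 178 ± 23.1 and 90.2 ± 1.02 CPM (SD, n = 2 each).

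With the mean of each treatment subtracted, members moved together in 2 sets over the 24 libraries, which share their groups and depth. Fosl2 correlated with Fosl1 at a Pearson's r of 0.78, with Fos at 0.72 and with Jund at 0.72, while Jun correlated with Junb at 0.73 and with Fosl2 at -0.07. In all 12 groups the library numbered 2 had more Jun and more Junb than the library numbered 1. Fosb ran against Fosl1 at -0.59 and Fosl2 at -0.52. Over the 12 group means, among 10807 genes with at least 1 CPM on average, the genes most like Fosl2 were Bdnf (r = 0.990), which encodes a neurotrophin, and Pank3 (r = 0.982). Those most like Jun were Dusp8 (r = 0.997), a phosphatase of MAP kinases, and Ndufb9 (r = 0.993). Jund was followed by Hpcal1 (r = 0.992) and Il17rc (r = 0.991), Fosl1 by Hoxc13 (r = 0.981) and Plk2 (r = 0.977), Fosb by Ech1 (r = 0.971) and Zfp358 (r = 0.964), Fos by Klhdc8a (r = 0.957) and Epn1 (r = 0.956), and Junb by Inka1 (r = 0.872) and Soga1 (r = 0.844). Treatment separates these 12 points, and over the 24 libraries with the treatment mean subtracted, Klhdc8a for Fos and Zfp358 for Fosb were the only ones named again.

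Among 8 tested basic leucine zipper partners of Fos and Jun, 1 rose and 2 fell with dexamethasone without IPTG, a share near that of all tested genes, of which 38% were called, 19.8% higher and 18.2% lower. Maff, a small Maf protein, rose by a log2 of 2.21 ± 0.12 (SE, edgeR adjusted p = 1.75e-12). Atf2 changed by -0.28 ± 0.06 (SE, edgeR adjusted p = 0.000479) and Maf by -0.30 ± 0.09 (SE, edgeR adjusted p = 0.00754). With the GC trend removed, the change of Atf2 had an adjusted p of 0.992. In knockdown cells 2 of 8 were lower in dexamethasone, Maff (-0.49, edgeR adjusted p = 0.00228) and Maf (-0.26, edgeR adjusted p = 0.039), and 0 of 8 were called in ethanol, beside 8.49% of all genes lower in dexamethasone and 13.4% called in ethanol. The median log2 change of the 8 was -0.07 with dexamethasone, and -0.09 in dexamethasone and -0.02 in ethanol for the knockdown.

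Of 20 upstream kinases and promoter factors, 7 rose and 5 fell with dexamethasone without IPTG, beside 19.8% of all tested genes higher and 18.2% lower. Creb1, which encodes the factor of the cAMP response element, fell by a log2 of 0.55 (-0.55 ± 0.06 SE, edgeR adjusted p = 2.13e-07), and Mef2a by 0.45 (-0.45 ± 0.06 SE, edgeR adjusted p = 4.61e-06). Map2k2, a kinase of the ERK pathway, rose by 0.34 ± 0.06 (SE, edgeR adjusted p = 4.99e-05), and Mrtfa, a cofactor of serum response factor, by 0.35 ± 0.06 (SE, edgeR adjusted p = 7.76e-05). Creb1, Mef2a, Map2k2 and Mrtfa were not examined with the GC trend removed. Of genes named from the other lists, Atf2, Hnrnpd, Tgfb1 and Hmga1 were not called with it removed. Maff, Maf, Zfp36, Zfp36l2, Zfp36l1, Ccl2 and Ptgs2 still were. In knockdown cells 1 was higher in each treatment, Elk3, at 0.46 in dexamethasone and 0.38 in ethanol (edgeR adjusted p = 4.55e-07 and 1.41e-05). Mef2a was lower at -0.26 in both (edgeR adjusted p = 0.00556 and 0.00862), and Mef2d at -0.22 in dexamethasone (edgeR adjusted p = 0.00779). These 3 calls in dexamethasone and 2 in ethanol stand beside 16.9% and 13.4% of all genes called, so the list did not exceed the background. The median of the 20 was 0.02 with dexamethasone, and -0.01 in dexamethasone and -0.04 in ethanol for the knockdown.

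Of 13 genes for the turnover of AP-1 RNA and protein, 5 rose and 2 fell with dexamethasone without IPTG, beside 19.8% of all tested genes higher and 18.2% lower. Zfp36, which encodes tristetraprolin, a protein that destabilises RNAs with AU-rich ends, rose by a log2 of 2.68 ± 0.09 (SE, edgeR adjusted p = 4.19e-18), and its relative Zfp36l2 rose by 1.62 ± 0.06 (SE, edgeR adjusted p = 4.53e-17). Zfp36l1, of the same family, changed by -0.95 ± 0.13 (SE, edgeR adjusted p = 5.24e-05) and Hnrnpd, another binder of AU-rich RNA, by -0.39 ± 0.05 (SE, edgeR adjusted p = 2.44e-06). With the GC trend removed Hnrnpd was at -0.15 (adjusted p = 0.056). In knockdown cells 4 of 13 were lower in dexamethasone and 3 in ethanol, beside 8.49% and 6.24% of all genes. Trib1, an adaptor for the ubiquitin ligase COP1, was at -0.97 in dexamethasone and -0.50 in ethanol (edgeR adjusted p = 3.99e-06 and 0.00545), and Zfp36l1 was at -0.99 and -0.76 (edgeR adjusted p = 0.000184 and 0.00155). The median of the 13 was -0.01 with dexamethasone, and -0.06 in dexamethasone and -0.03 in ethanol for the knockdown.

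Of 16 tested textbook AP-1 targets, 2 rose and 7 fell with dexamethasone without IPTG, beside 19.8% of all tested genes higher and 18.2% lower, while the median log2 change of the 16 was 0.15. Ccl2, a chemokine, changed by -2.77 ± 0.15 (SE, edgeR adjusted p = 9.04e-14) and Ptgs2, the inducible cyclooxygenase, by -1.82 ± 0.08 (SE, edgeR adjusted p = 2.55e-14). Tgfb1 and Hmga1 rose by 0.18 and 0.45 (edgeR adjusted p = 0.0167 and 0.0202), and with the GC trend removed they were at 0.02 and 0.17 (adjusted p = 0.894 and 0.387). In knockdown cells 4 were higher and 2 lower in dexamethasone, and 2 higher and 3 lower in ethanol, with medians of 0.06 and 0.07. Of all genes 16.9% were called in dexamethasone, 8.49% lower, and 13.4% in ethanol, 7.16% higher and 6.24% lower. Ccl2 was at -0.92 in dexamethasone and -1.16 in ethanol (edgeR adjusted p = 0.000689 and 1.18e-06) and Ptgs2 at -0.33 in both (edgeR adjusted p = 0.00708 and 0.00508). Mmp10, a metalloproteinase, was higher by a log2 of 1.62 in dexamethasone and 2.22 in ethanol (edgeR adjusted p = 0.00149 and 0.00178), and Cd44, a receptor for hyaluronan, by 0.22 in dexamethasone (edgeR adjusted p = 0.00184). Prl2c3 was called higher too, but the Prl2c genes are near-identical copies, and its counts are uncertain.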

How the data were processed

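Stranded total RNA libraries depleted of ribosomal RNA were sequenced, per the labels' protocols. The authors deposited 1 table of raw read counts per gene for all 24 libraries, with gene positions and lengths. Per the submitters' processing notes, bcl2fastq 2.20, cutadapt 1.18, STAR 2.7.0f, featureCounts and Subread 2.0.3 were used with mm10; the strand setting, annotation release and treatment of multimapping reads are not given in the sources used here. Samples were grouped by their titles. All members and lists were chosen with earlier results of these data known. Genes with low counts were removed with edgeR's filterByExpr, leaving 16934 of 55341. Counts were scaled with TMM factors and fitted in 1 model of 12 groups with edgeR 4.0.16 (robust quasi-likelihood test, R 4.3.3, limma 3.58.1) and 12 residual degrees of freedom; the median biological coefficient of variation was 6.43%. P-values were adjusted by Benjamini and Hochberg over all tested genes, with a threshold of 0.05. There were 24 planned comparisons and 2 added after results were seen. Alternatives were DESeq2 1.42.0, other factors and filters, replicate blocks, removal of a trend on GC content and length, fits of the compared libraries alone, and each library left out. The test was tested on simulated data. GC content came from GENCODE vM21 transcripts, where all 55341 names were found and 55280 had the same coordinates. Promoters of 6 of the 7 genes were matched by symbol in RefSeq. All 7 members are named; from each list up to 2 higher and 2 lower genes of smallest adjusted p are named, and for likeness the 2 genes of highest Pearson correlation. The 2 transcripts Gm26917 and Gm42418 held 12.0% to 16.1% of the counts.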

Additional observations from a re-analysis of the deposited data

Results flagged for a closer look

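The dexamethasone response of Fosl2 differed between states in a direct test of the difference. In knockdown cells, with IPTG and the empty vector, Fosl2 had 64.0 and 65.3 CPM with dexamethasone and 104 and 106 CPM in ethanol. Without IPTG it had 147 and 157 CPM with dexamethasone and 166 and 183 CPM in ethanol. The log2 difference of the responses, knockdown minus no IPTG, was -0.50 ± 0.09 (SE, edgeR adjusted p = 0.00732), and DESeq2 called it too (adjusted p = 4.26e-05). With edgeR the call was lost when any of 4 single libraries was left out. The adjusted p was 0.0579 without replicate 1 in dexamethasone and 0.0726 without replicate 2 in ethanol of the knockdown cells, and 0.0509 without replicate 2 in dexamethasone and 0.0832 without replicate 1 in ethanol of the cells without IPTG.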

How the results depend on the processing

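Of 52 called AP-1 fold changes, 29 were called under every alternative, 23 were lost under at least 1 and 0 changed sign. The number of AP-1 genes called moved by over 1.5 times as follows, and the cause was not tested. For the knockdown in ethanol, with 2 called, it was 5 with the replicate block, 5 with the replicate block within treatment, 4 with only the libraries compared, and 1 to 3 with each library left out. With each library left out it was 3 to 6 for the dexamethasone response without IPTG (6 as reported) and 2 to 4 for that in C2 cells (4 as reported). For the mutants against wild-type NIPBL it was 1 to 3 for C1-C2 (3 as reported), 1 to 2 for C2 (2 as reported, and 1 with only the libraries compared) and 1 to 2 for C1 (2 as reported, and 4 with the GC trend removed and a replicate block within treatment). For the difference of responses between knockdown cells and cells without IPTG it was 2 with the replicate block and 0 to 1 with each library left out (1 as reported). For wild-type NIPBL with IPTG against cells without IPTG it was, in dexamethasone, 5 with either replicate block and 2 to 4 with each library left out (3 as reported), and, in ethanol, 1 with no filter, with DESeq2 and with only the libraries compared, and 1 to 2 with each library left out (2 as reported). The log2 difference of replicate 2 minus replicate 1 was taken per gene in each group and correlated between groups. Pearson's r was -0.22 to 0.18 over 15 pairs of dexamethasone groups (3 above 0.1). It was -0.04 to 0.16 over 15 pairs of ethanol groups (7 above 0.1) and -0.12 to 0.28 over 36 pairs across treatments (6 above 0.1). Not every pair passed 0.1 and the labels tie the numbers to no shared batch or day, so the fit without the block was kept. That check ran over all genes together and did not test Jun or Junb, which were higher in replicate 2 in all 12 groups. In the fit without the block, this difference between replicates enters the standard errors of Jun and Junb.

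Over all genes, 176 of 884 alternative counts moved by over 1.5 times. With the trend on GC content and length removed, the genes called for the dexamethasone response numbered 3795 without IPTG (6438 as reported), 3468 in knockdown cells (5510), 3414 in C1 cells (5447), 3278 in C2 cells (5500) and 3543 in C1-C2 cells (5464). For wild-type NIPBL against empty vector there were 712 in dexamethasone, 1211 with no filter, 1395 with the replicate block and 179 with only the libraries compared. In ethanol there were 196, 349 with no filter and 392 with the replicate block. The knockdown gave 2854 in dexamethasone, or 1353 to 3075 with each library left out, and 2270 in ethanol, or 1107 to 2373. For C1-C2 against empty vector in dexamethasone there were 17, 232 with no filter, 130 with the replicate block, 70 with DESeq2 and 409 with only the libraries compared. For the difference of responses between knockdown cells and cells without IPTG there were 29, 85 with no filter, 71 with the replicate block, 62 with DESeq2 and 53 with only the libraries compared. Fos had 1 to 86 counts a library, which limits the precision of its values.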
